A study of Mus musculus with 4 samples.

Results

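The DNA replication genes of mouse early B cells were followed across 4 RNA sequencing libraries, as a list of 49 genes that act in origin licensing, at the replication fork, in nucleotide supply and in the joining of Okazaki fragments. The members were named by symbol, in a list drawn up with earlier results of these data known. All 49 were found among the 55573 Ensembl gene identifiers of the deposited files, on 16 chromosomes, and all 49 were among the 13281 genes that entered the test, whose average reached 1 FPKM in the KO or the WT libraries. FPKM is the number of fragments of a gene scaled to its exon length and to the size of the library.

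The cells were B cells sorted from bone marrow of C57BL/6 mice aged 8 to 12 weeks as Hardy fractions C and C′, which hold late pro-B cells and large cycling pre-B cells. There were 2 libraries from mice labelled ADAR1 KO (KO 1, KO 2) and 2 from wild type mice (WT 1, WT 2). The labels name no promoter, Cre line or allele for the knockout, and do not state if each library is a different animal. The p-values therefore reflect how far these 4 libraries scatter, and that scatter could be technical. Adar encodes ADAR1, an enzyme that edits adenosines of double-stranded RNA into inosines.

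Before a cell can copy its DNA, the origin recognition complex, CDC6 and CDT1 load rings of the MCM helicase onto origins. In S phase CDC45 and GINS join each ring to make the active helicase, and the polymerases, the sliding clamp PCNA and its loader RFC follow it. Most genes of this machinery are targets of the E2F transcription factors and are transcribed around the start of S phase. Pro-B and large pre-B cells divide under the signals of interleukin 7 and the pre-B cell receptor.

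Promoter windows of the members are shown because E2F control is what is best known of the group's transcription. RefSeq windows of the GRCm38.p6 build, running from 250 bases before to 50 bases after an annotated start, were matched by symbol for 40 of the 49 members. They were searched on both strands for TTTCCCGC, TTTCGCGC, TTTGCCGC and TTTGGCGC, which are spellings of the E2F site. A pair of these motifs can overlap head to head. At least 1 motif stood in 15 of the 40 members (37.5%), against 4.81% of the 9050 tested genes with a window and 2.6% of all 27025 genes with a window. Counted by window, 30.6% of the members' windows held a motif, against 2.26% of all 32851 windows. Of the licensing genes 7 of 10 held a motif, which were Mcm3, Mcm5, Mcm6, Mcm7, Orc1, Cdc6 and Cdt1, while 0 of 5 nucleotide supply genes did. In the lines below each sequence is on the gene's own strand, 5′ to 3′, with the motif letters in capitals. The position after each name is that of the first capital, counted from the RefSeq start, with no position 0. RefSeq starts can differ from the outer gene ends of the GENCODE annotation. For Orc1, Cdc6, Gins3, Rfc3 and Uhrf1 the motif lies before the RefSeq start but inside the GENCODE gene. Mcm3, Cdt1, Dnmt1 and Pole2 also held a motif and are not printed.
Orc1, -27, chr4:108579403-108579458, plus strand: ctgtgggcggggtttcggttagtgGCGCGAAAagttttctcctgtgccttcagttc
Cdc6, -138, chr11:98907989-98908044, plus strand: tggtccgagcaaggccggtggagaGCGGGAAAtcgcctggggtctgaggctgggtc
Mcm5, -153, chr8:75109332-75109387, plus strand: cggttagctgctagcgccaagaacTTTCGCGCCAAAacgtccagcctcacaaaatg
Mcm6, -110, chr1:128359784-128359839, minus strand: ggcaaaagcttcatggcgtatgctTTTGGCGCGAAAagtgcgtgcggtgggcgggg
Mcm7, +17, chr5:138171836-138171891, minus strand: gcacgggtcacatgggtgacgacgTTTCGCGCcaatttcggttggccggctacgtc
Gins3, -41, chr8:95633494-95633549, plus strand: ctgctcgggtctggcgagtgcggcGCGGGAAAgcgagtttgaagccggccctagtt
Pola1, -138, chrX:93632262-93632317, minus strand: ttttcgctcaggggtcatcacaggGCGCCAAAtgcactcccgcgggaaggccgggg
Pold1, +40, chr7:44548766-44548800, minus strand: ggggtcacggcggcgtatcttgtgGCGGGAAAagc
Rfc3, -10, chr5:151651187-151651242, minus strand: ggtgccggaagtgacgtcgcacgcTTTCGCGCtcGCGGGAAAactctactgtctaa
Lig1, +27, chr7:13278828-13278875, plus strand: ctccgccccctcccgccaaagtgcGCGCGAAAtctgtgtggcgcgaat
Uhrf1, -185, chr17:56304104-56304159, plus strand: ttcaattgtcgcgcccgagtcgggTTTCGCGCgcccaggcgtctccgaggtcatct
A match of letters is a description and does not show that a factor binds there. In Mcm5 and Mcm6 a pair of motifs shares 4 letters, and in Rfc3 a pair lies 2 bases apart. Members with a motif had a median log2 change of -0.37 (15 genes) and those without one -0.35 (25 genes), KO minus WT.

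Transcript levels of the DNA replication genes were lower in the libraries labelled KO, by a modest amount, and far more in KO 2 than in KO 1. The ratio of the KO mean to the WT mean lay below 1 for all 49 members, with mean FPKM between 7.82% and 30.0% lower and a median of 21.1% lower. Against the WT mean, the median member was 10.8% lower in KO 1 and 32% lower in KO 2. KO 1 was below the WT mean for 43 of 49 members (51.0% of all genes) and KO 2 for all 49 (65.2% of all genes). All 49 log2 changes were negative (61.7% of all 13281 genes were). When the libraries were rescaled to B-lineage marker genes, 40 of the 49 were positive and 9 negative, where 12.1% of all genes were negative. That scaling moved the median of all genes up by 0.41. In the values as deposited, the median log2 change was -0.35 for the members and -0.09 for all genes tested. The members' median minus that of all genes was between -0.37 and -0.16 over the 15 alternative settings. Median centring, the replicate blocks and the fit without a trend cannot change that difference, and a scaling of whole libraries moves both medians together. The count of settings is therefore no measure of how firm the difference is.

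**Figure D1:**
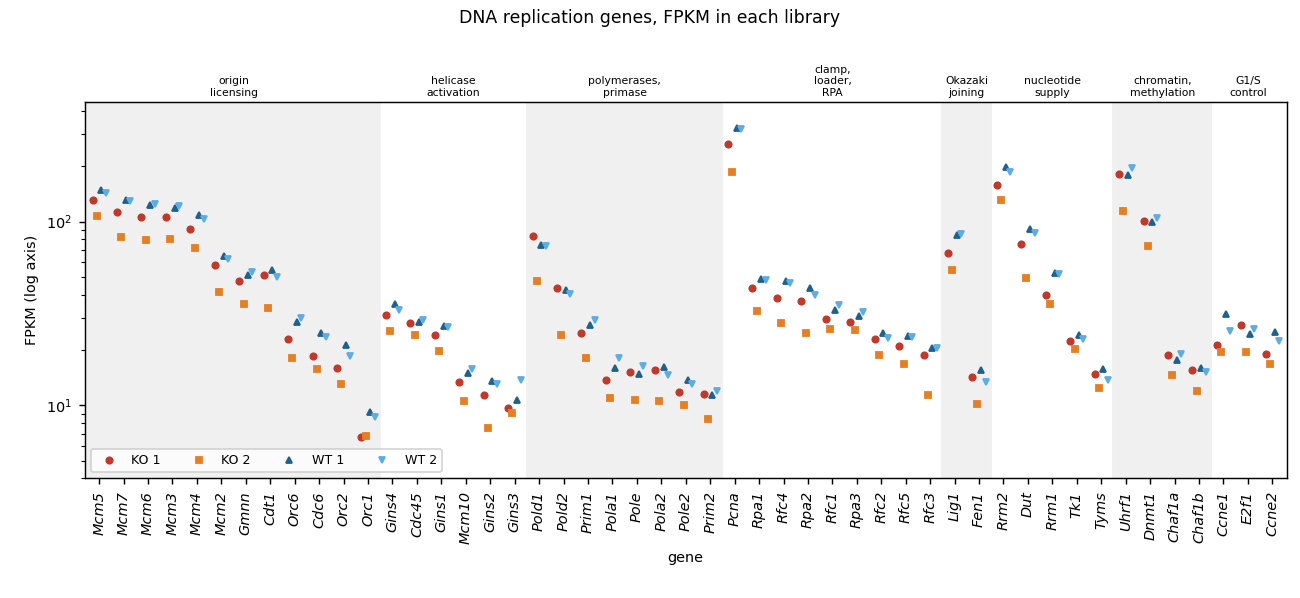
FPKM (log axis) of each of the 49 DNA replication genes in KO 1, KO 2, WT 1 and WT 2, grouped by role and ordered within a role by the WT mean. Each point is 1 library. KO 2 lies below both WT libraries for all 49 genes (57.7% of all genes) and KO 1 for 36 (38.6% of all genes). Levels run from Orc1 at 6.71 FPKM to Pcna at 325 FPKM.

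No single member passed the test. Limma on log2(FPKM + 1), with Benjamini-Hochberg adjustment over all 13281 genes and a threshold of 0.05, called 0 of 49 members, with adjusted p between 0.367 and 0.743, while 27 of all genes (0.203%) were called, all lower in KO. At an unadjusted p under 0.05, limma had 10 of 49 members lower and 0 higher, where 6.02% of all genes were lower and 6.45% higher. Voom on estimated fragments had 12 members lower at that level, where 865 of 13278 genes were, and called 0 members. Both KO libraries lay below both WT libraries for 36 of 49 members, against 31.7% of all genes, and 0 members lay above, against 19.7% of all genes. Standard errors of the members' log2 changes were between 0.13 and 0.29, and each member had between 358 and 13737 estimated fragments in a library.

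The targeted gene gave no check of the labels. Adar stood at 15.2 and 16.8 FPKM in KO 1 and KO 2, against 15.04 and 14.6 FPKM in WT 1 and WT 2, a log2 change of 0.10 ± 0.14 (SE, adjusted p = 0.721, limma). A deletion of part of the gene need not lower its summed value, so directions are those of the libraries labelled KO. The libraries held between 15111931 and 16405411 estimated fragments. Neutrophil markers, from cells the gate should leave out, took 11.3% and 21.4% of all FPKM in KO 1 and KO 2, against 8.51% and 8.25% in WT 1 and WT 2. B-lineage markers summed to 1897 and 1070 FPKM in KO 1 and KO 2, against 2089 and 2122 FPKM in WT 1 and WT 2, and the list's genes differed widely among themselves, with log2 changes between -1.66 and 0.44. Cd79a, a signalling chain of the B cell receptor, stood at 194 and 96.8 FPKM in KO 1 and KO 2, against 436 and 436 FPKM in WT 1 and WT 2. Vpreb2, a surrogate light chain gene, stood at 75.7 and 53.5 FPKM in KO 1 and KO 2, against 52.5 and 41.5 FPKM in WT 1 and WT 2. Any scaling to this list carries that spread.

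Origin licensing genes were lower in both KO libraries, although their median log2 change of -0.38 became 0.08 with B-lineage scaling. That scaling took the median of all genes from -0.09 to 0.32. Of 12 members 11 had both KO libraries below both WT libraries, against 31.7% of all genes. The median log2 difference from the WT mean was -0.21 in KO 1 and -0.59 in KO 2. Cdc6, which loads the MCM helicase with CDT1, stood at 18.6 and 15.7 FPKM in KO 1 and KO 2, against 24.9 and 23.7 FPKM in WT 1 and WT 2. The groups did not overlap, and the means were 17.2 ± 2.06 FPKM in the KO libraries and 24.3 ± 0.834 FPKM in the WT libraries (SD, n = 2 each). The log2 change was -0.48 ± 0.15 (SE), with an adjusted p of 0.370 in limma. Cdc6 (ENSMUSG00000017499) lies on chromosome 11, 98907801 to 98923940, in the GRCm38 build, by the GENCODE annotation.

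The origin recognition complex, which marks origins for loading, was represented by Orc1, Orc2 and Orc6. Orc1 was the least abundant member, at 6.71 and 6.8 FPKM in KO 1 and KO 2, against 9.17 and 8.68 FPKM in WT 1 and WT 2. It was the only member of the 49 that was not lower in KO 2 than in KO 1, and the KO pair differed by less than the WT pair. Orc6 stood at 23.1 and 18.2 FPKM in KO 1 and KO 2 and at 28.3 and 29.9 FPKM in WT 1 and WT 2. Orc2 was at 15.99 and 13.1 FPKM in the KO libraries and 21.4 and 18.5 FPKM in the WT libraries. The log2 changes were -0.36 ± 0.13, -0.48 ± 0.17 and -0.43 ± 0.17 (SE) for Orc1, Orc6 and Orc2, with adjusted p of 0.395, 0.376 and 0.397 in limma. Of the Orc2 exon bases 29.8% overlap Nif3l1 on the opposite strand, so the values of the pair could mix if the counting ignored strand.

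The 6 subunits of the MCM helicase ring had changes of similar size. Mcm2, Mcm3, Mcm4, Mcm5, Mcm6 and Mcm7 summed to 605 and 462 FPKM in KO 1 and KO 2, against 693 and 685 FPKM in WT 1 and WT 2. Each subunit lay below both WT libraries in both KO libraries (31.7% of all genes did), with log2 changes between -0.42 and -0.30. The most abundant subunit, Mcm5, was 2.26 and 2.57 times the least abundant, Mcm2, in KO 1 and KO 2, against 2.29 and 2.28 times in WT 1 and WT 2. Mcm5 stood at 131 and 107 FPKM in KO 1 and KO 2 and at 148 and 144 FPKM in WT 1 and WT 2. Mcm2 was at 58.1 and 41.5 FPKM in the KO libraries and 64.6 and 62.96 FPKM in the WT libraries.

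Geminin holds CDT1 inactive once S phase has begun. Gmnn, which encodes geminin, was at 47.7 and 35.5 FPKM in KO 1 and KO 2, against 51.1 and 53.2 FPKM in WT 1 and WT 2. Cdt1 was at 51.2 and 33.99 FPKM in KO 1 and KO 2, against 54.3 and 49.9 FPKM in WT 1 and WT 2. KO 1 thus lay inside the WT range for Cdt1 and below it for Gmnn, while KO 2 was below the WT range for both. The log2 changes were -0.31 ± 0.23 for Cdt1 and -0.33 ± 0.19 for Gmnn (SE), and limma gave adjusted p of 0.550 and 0.483.

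**Figure D2:**
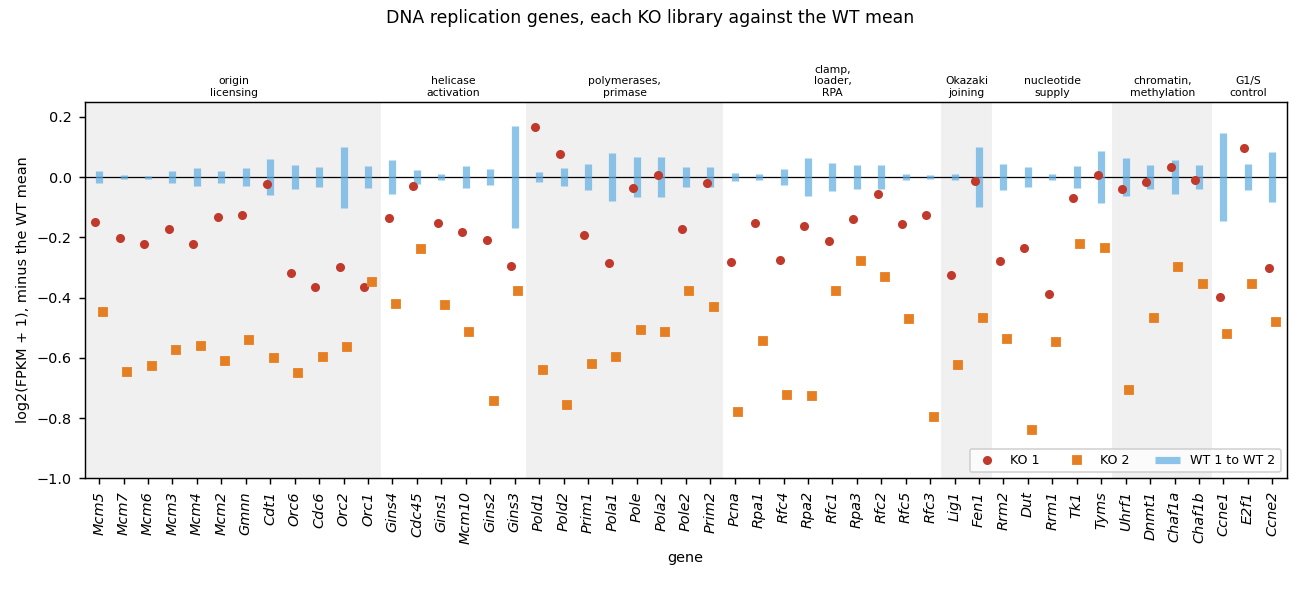
Log2(FPKM + 1) of KO 1 and KO 2 minus the WT mean for each of the 49 genes, with blue bars spanning WT 1 to WT 2 and genes grouped by role. KO 2 lies below 0 for all 49 genes (65.2% of all genes tested), between -0.84 and -0.22. KO 1 does so for 43 (51.0% of all genes tested), between -0.40 and 0.17. Rescaled to B-lineage markers, 40 of the 49 changes were positive and 9 negative, where 12.1% of all genes were negative.

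Genes that turn the loaded ring into a working helicase were all lower in both KO libraries. With B-lineage scaling their median log2 change of -0.31 became 0.14, while that of all genes went from -0.09 to 0.32. Each of the 6 members lay below both WT libraries in KO 1 and in KO 2, against 31.7% of all genes. The median log2 difference from the WT mean was -0.17 in KO 1 and -0.42 in KO 2. Gins2, a subunit of the GINS complex, was at 11.3 and 7.52 FPKM in KO 1 and KO 2, against 13.5 and 12.99 FPKM in WT 1 and WT 2 (log2 change -0.48 ± 0.21, SE, adjusted p = 0.439, limma). This was the lowest change of the 6, and 67.3% of its exon bases overlap Gse1 on the opposite strand, itself at 21.6 and 15.3 FPKM in KO 1 and KO 2, against 14.6 and 16.0 FPKM in WT 1 and WT 2.

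Gins3 was at 9.72 and 9.1 FPKM in the KO libraries and 10.7 and 13.8 FPKM in the WT libraries, where the WT pair itself was far apart. Gins1 was at 24.03 and 19.8 FPKM in KO 1 and KO 2, against 27.01 and 26.7 FPKM in WT 1 and WT 2. Mcm10, which helps start unwinding, was at 13.5 and 10.5 FPKM in the KO libraries and 15.02 and 15.8 FPKM in the WT libraries. Adjusted p in limma was 0.459 for Gins3, 0.473 for Gins1 and 0.449 for Mcm10, with log2 changes of -0.34 ± 0.17, -0.29 ± 0.15 and -0.35 ± 0.17 (SE). Cdc45, the partner of GINS on the helicase, had a smaller change, at 28.2 and 24.2 FPKM in KO 1 and KO 2, against 28.3 and 29.2 FPKM in WT 1 and WT 2. Its KO 1 value lay just under the lower WT library. Gins4 was between these members, with a log2 change of -0.28 ± 0.16 (SE).

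Of the replicative polymerase genes some were lower in both KO libraries and the others lay below WT in KO 2 but not in KO 1. Polymerase alpha and primase lay the RNA-DNA primers from which every Okazaki fragment starts. Pola1, the catalytic subunit, was at 13.8 and 10.9 FPKM in KO 1 and KO 2, against 16.03 and 18.04 FPKM in WT 1 and WT 2, with a log2 change of -0.44 ± 0.17 (SE, adjusted p = 0.395, limma). Prim1, the small primase subunit that makes the RNA, was at 24.7 and 18.1 FPKM in the KO libraries and 27.5 and 29.3 FPKM in the WT libraries. The partner subunits were not below both WT libraries in KO 1. Pola2 was at 15.5 and 10.5 FPKM in KO 1 and KO 2, against 16.2 and 14.7 FPKM in WT 1 and WT 2, and Prim2 was at 11.6 and 8.45 FPKM in KO 1 and KO 2, against 11.5 and 12.04 FPKM in WT 1 and WT 2. For both, KO 1 was inside the WT range and KO 2 below it.

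Polymerase delta, which copies the lagging strand, showed the widest gap between the KO libraries. Pold1, its catalytic subunit (ENSMUSG00000038644, chromosome 7, 44532746 to 44548849, GRCm38), was at 83.3 and 47.3 FPKM in KO 1 and KO 2, against 75.02 and 73.4 FPKM in WT 1 and WT 2. Pold2, an accessory subunit, was at 43.6 and 24.03 FPKM in KO 1 and KO 2, against 42.2 and 40.4 FPKM in WT 1 and WT 2. For both genes KO 1 was above both WT libraries and KO 2 was far below them, so the sign of the change depended on the library. Pold1 was the only member whose KO libraries lay more than 0.1 on either side of the WT mean on the log2 scale, at 0.17 for KO 1 and -0.64 for KO 2. Its log2 change was -0.24 ± 0.29 (SE, adjusted p = 0.694, limma).

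Polymerase epsilon copies the leading strand. Pole, its catalytic subunit, was at 15.1 and 10.6 FPKM in KO 1 and KO 2, against 14.8 and 16.3 FPKM in WT 1 and WT 2, with KO 1 inside the WT range. Pole2, its accessory subunit, was at 11.8 and 10.1 FPKM in the KO libraries and 13.7 and 13.1 FPKM in the WT libraries, with both KO libraries below. Of the 8 polymerase and primase genes 3 (37.5%) had both KO libraries below both WT libraries, which were Pola1, Prim1 and Pole2. That share was near the 31.7% of all genes. The group's median log2 difference from the WT mean was -0.03 in KO 1 and -0.56 in KO 2. Its median log2 change of -0.27 became 0.17 with B-lineage scaling (all genes: -0.09 and 0.32). Adjusted p in limma was 0.442 for Prim1, 0.473 for Pole2 and 0.552 for Pole.

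The sliding clamp was the most abundant member and among those with the lowest changes. Pcna, whose product holds polymerases on DNA (ENSMUSG00000027342, chromosome 2, 132249162 to 132253314, GRCm38), was at 265 and 187 FPKM in KO 1 and KO 2, against 325 and 319 FPKM in WT 1 and WT 2. The means were 226 ± 55.01 FPKM in the KO libraries and 322 ± 4.31 FPKM in the WT libraries (SD, n = 2 each), and the spread lay almost wholly between KO 1 and KO 2. The log2 change was -0.53 ± 0.23 (SE, 95% interval -1.12 to 0.06, adjusted p = 0.433, limma). A processed copy, Pcna-ps2, was listed at 5.66 and 1.78 FPKM in KO 1 and KO 2, against 3.40 and 2.42 FPKM in WT 1 and WT 2. How reads shared by the copies were counted is not known.

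The clamp loader and the single-strand binding protein RPA were lower in both KO libraries. With B-lineage scaling the group's median log2 change of -0.35 became 0.12 (all genes: -0.09 and 0.32). All 9 members of this group, Pcna included, lay below both WT libraries in KO 1 and in KO 2, against 31.7% of all genes. The median log2 difference from the WT mean was -0.16 in KO 1 and -0.54 in KO 2. Rfc4 was at 38.6 and 28.1 FPKM in KO 1 and KO 2, against 47.8 and 46.1 FPKM in WT 1 and WT 2 (log2 change -0.50 ± 0.19, SE, adjusted p = 0.397, limma). Rfc1, the large subunit found in the replicative loader alone, was at 29.5 and 26.1 FPKM in the KO libraries and 33.2 and 35.4 FPKM in the WT libraries, a log2 change of -0.29 ± 0.14 (SE). The 5 RFC subunits summed to 131 and 101 FPKM in KO 1 and KO 2, against 150.0 and 149 FPKM in WT 1 and WT 2.

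RPA protects the unwound strands. Rpa2 was at 37.02 and 24.7 FPKM in KO 1 and KO 2, against 43.5 and 39.7 FPKM in WT 1 and WT 2. Its log2 change was -0.44 ± 0.22 (SE, adjusted p = 0.458, limma), against -0.35 ± 0.18 for Rpa1 and -0.21 ± 0.14 for Rpa3 (SE). Rfc3 had the second lowest KO 2 value of all 49 members relative to the WT mean, -0.80 on the log2 scale, against -0.13 in KO 1. Its FPKM was 18.7 and 11.4 in KO 1 and KO 2, against 20.6 and 20.4 in WT 1 and WT 2.

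Okazaki fragments are finished by the flap nuclease FEN1 and DNA ligase 1. The median log2 change of their genes was -0.36, or 0.10 with B-lineage scaling (all genes: -0.09 and 0.32). Lig1 was at 67.4 and 54.6 FPKM in KO 1 and KO 2, against 84.2 and 85.2 FPKM in WT 1 and WT 2, with the WT pair almost equal and both KO libraries well below. The means were 61.0 ± 9.0 FPKM in the KO libraries and 84.7 ± 0.707 FPKM in the WT libraries (SD, n = 2 each). Its log2 change was -0.47 ± 0.17 (SE, adjusted p = 0.380, limma). Fen1 was at 14.3 and 10.2 FPKM in KO 1 and KO 2, against 15.6 and 13.4 FPKM in WT 1 and WT 2, with KO 1 inside the WT range (log2 change -0.24 ± 0.20, SE, adjusted p = 0.591, limma). Of the Fen1 exon bases 78.8% overlap the antisense gene Gm10143, which stood at 0.40 and 0.36 FPKM in KO 1 and KO 2 and at 0.47 and 0.48 FPKM in WT 1 and WT 2.

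Nucleotide supply held both the member with the smallest p and the member with the lowest change. Its median log2 change of -0.41 became 0.07 with B-lineage scaling (all genes: -0.09 and 0.32). Ribonucleotide reductase makes deoxyribonucleotides from ribonucleotides, with a large subunit from Rrm1 and a small one from Rrm2. Rrm1 (ENSMUSG00000030978, chromosome 7, 102441695 to 102469771, GRCm38) was at 39.8 and 35.5 FPKM in KO 1 and KO 2, against 52.7 and 51.97 FPKM in WT 1 and WT 2. The means were 37.6 ± 3.01 FPKM in the KO libraries and 52.3 ± 0.502 FPKM in the WT libraries (SD, n = 2 each), and the KO pair differed little beside the gap to WT. Its log2 change was -0.47 ± 0.14 (SE, 95% interval -0.83 to -0.10, adjusted p = 0.367, limma). Rrm2 was at 158 and 132 FPKM in the KO libraries and 198 and 186 FPKM in the WT libraries, a log2 change of -0.41 ± 0.18 (SE, adjusted p = 0.433, limma).

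Dut, whose product removes dUTP so that uracil stays out of DNA, was at 75.5 and 49.3 FPKM in KO 1 and KO 2, against 91.2 and 87.1 FPKM in WT 1 and WT 2. The log2 change of -0.54 ± 0.24 (SE) was the lowest of the 49, most of it from KO 2, and limma gave an adjusted p of 0.435. The thymidylate genes had smaller changes. Tk1, which encodes the thymidine kinase of the salvage route, was at 22.5 and 20.2 FPKM in the KO libraries and 24.3 and 23.02 FPKM in the WT libraries. Tyms, thymidylate synthase, was at 14.8 and 12.4 FPKM in KO 1 and KO 2, against 15.7 and 13.8 FPKM in WT 1 and WT 2, with KO 1 inside the WT range. Log2 changes were -0.15 ± 0.14 for Tk1 and -0.11 ± 0.16 for Tyms (SE), and the limma adjusted p was 0.628 and 0.728.

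Genes that rebuild chromatin and restore DNA methylation behind the fork lay below both WT libraries in KO 2 but not in KO 1. Their median log2 change of -0.21 became 0.25 with B-lineage scaling (all genes: -0.09 and 0.32). For 0 of the 4 members were both KO libraries below both WT libraries, against 31.7% of all genes. The median log2 difference from the WT mean was -0.01 in KO 1 and -0.41 in KO 2. Uhrf1, which brings the maintenance methyltransferase to newly copied DNA, was at 183 and 115 FPKM in KO 1 and KO 2, against 180.3 and 196 FPKM in WT 1 and WT 2. Dnmt1, that methyltransferase, was at 101 and 73.3 FPKM in KO 1 and KO 2, against 99.1 and 105 FPKM in WT 1 and WT 2. In both genes KO 1 lay inside the WT range and KO 2 was the lowest library. The log2 changes were -0.37 ± 0.26 for Uhrf1 and -0.24 ± 0.20 for Dnmt1 (SE), with adjusted p of 0.539 and 0.590 in limma.

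Chaf1a and Chaf1b encode subunits of CAF-1, which places histones on new DNA. Chaf1a was at 18.8 and 14.7 FPKM in KO 1 and KO 2, against 17.6 and 19.1 FPKM in WT 1 and WT 2. Chaf1b was at 15.5 and 11.99 FPKM in KO 1 and KO 2, against 16.1 and 15.2 FPKM in WT 1 and WT 2. KO 1 lay inside the WT range for both, and limma gave log2 changes of -0.13 ± 0.17 and -0.18 ± 0.17 (SE) with adjusted p of 0.705 and 0.623. Of the Chaf1a exon bases 52.5% overlap Ubxn6 on the opposite strand.

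Among the genes that start S phase, the E-type cyclins were lower in both KO libraries and E2f1 was not. The group's median log2 change was -0.39, or 0.07 with B-lineage scaling (all genes: -0.09 and 0.32). Cyclin E activates CDK2 to fire origins. Ccne1 was at 21.2 and 19.4 FPKM in KO 1 and KO 2, against 31.4 and 25.5 FPKM in WT 1 and WT 2, and its KO 1 value was the lowest of all 49 members relative to the WT mean (-0.40 on the log2 scale). Ccne2 was at 19.02 and 16.7 FPKM in KO 1 and KO 2, against 25.1 and 22.3 FPKM in WT 1 and WT 2, and 17.4% of its exon bases overlap Ints8 on the opposite strand. The WT libraries were themselves spread for Ccne1, though both lay above the KO libraries. Log2 changes were -0.46 ± 0.16 for Ccne1 and -0.39 ± 0.15 for Ccne2 (SE), with adjusted p of 0.380 and 0.395 in limma. E2f1, a transcription factor that drives many of the genes above, was at 27.2 and 19.6 FPKM in KO 1 and KO 2, against 24.6 and 26.2 FPKM in WT 1 and WT 2. KO 1 was above and KO 2 below both WT libraries, and the limma log2 change was -0.13 ± 0.19 (SE, adjusted p = 0.743).

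KO 1 stood differently across the 49 genes. KO 2 was below both WT libraries for all 49 members, against 57.7% of all genes tested with KO 1 left out. KO 1 was below both for 36 members, inside the WT range for 10 and above it for 3, which were Pold1, Pold2 and E2f1. Of all genes tested with KO 2 left out, KO 1 was below both WT libraries for 38.6% and above both for 38.7%. The 13 genes for which KO 1 was not below both WT libraries held all 4 chromatin genes and 5 of the 8 polymerase and primase genes, together with Cdt1, Fen1, Tyms and E2f1. KO 2 was lower than KO 1 for 48 of 49 members, against 63.1% of all genes. The median absolute log2 gap between KO 1 and KO 2 was 0.34 over the members, against 0.07 between WT 1 and WT 2, so the KO libraries differed from each other more than KO 1 differed from WT (median -0.16).

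With KO 2 alone set against the WT libraries, 9 of 49 members were called lower, against 2.88% of all genes lower and 7.1% called either way, in a fit that assumes the lone library to vary like the WT pair. These were Mcm6, Mcm7, Pold1, Pold2, Pcna, Rfc3, Rfc4, Lig1 and Dut, with adjusted p between 0.0449 and 0.0496 in limma. With KO 1 alone, 43 of 49 members had a negative log2 change, against 50.1% of all genes, and 6 had a positive one. The median was -0.16 for the members and -0.00075 for all genes. In a bulk sample, fewer dividing cells and less RNA of these genes per cell cannot be told apart.

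**Figure D3:**
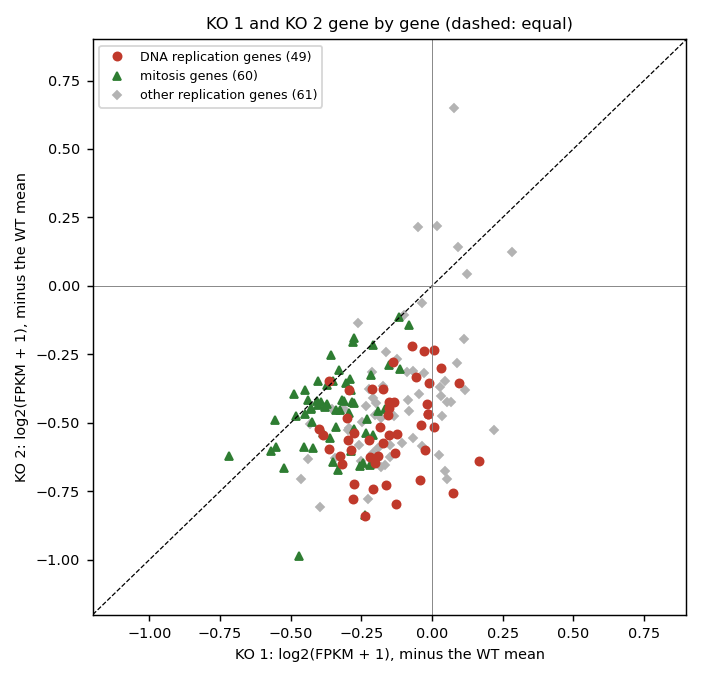
Log2(FPKM + 1) minus the WT mean in KO 1 (x) and KO 2 (y) for the 49 DNA replication genes, 60 mitosis genes and 61 other replication genes; each point is a gene and the dashed line marks equal values. 48 of the 49 replication genes lie below the line, where KO 2 was below KO 1 for 63.1% of all genes. Mitosis genes have a median of -0.33 in KO 1 and -0.45 in KO 2. Rescaled to B-lineage markers, the median log2 change of each of the 3 lists was positive, as was that of all genes (0.32).

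Other genes of the pathway, in a list of 61 that held further origin, fork, histone chaperone and S phase genes, were mostly lower in KO as well. Their median log2 change of -0.30 became 0.14 with B-lineage scaling (all genes: -0.09 and 0.32). All 61 were tested and limma called 0, with 8 lower at an unadjusted p under 0.05 (6.02% of all genes). By voom 11 were lower at that level (865 of 13278 genes). A total of 55 had a negative log2 change, against 61.7% of all genes. Both KO libraries lay below both WT libraries for 39, against 31.7% of all genes. Their median log2 difference from the WT mean was -0.13 in KO 1 and -0.45 in KO 2. Nasp, a histone chaperone, had the smallest p and was at 21.3 and 17.9 FPKM in KO 1 and KO 2, against 29.1 and 30.4 FPKM in WT 1 and WT 2. Dbf4, the activator of the origin-firing kinase CDC7, was at 10.8 and 10.2 FPKM in the KO libraries and 14.2 and 15.5 FPKM in the WT libraries. For both genes the KO libraries lay below WT, and they were closer together for Dbf4 than for Nasp.

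Ccna2, which encodes cyclin A2 of S and G2 phases, was at 88.9 and 77.6 FPKM in KO 1 and KO 2, against 118 and 124 FPKM in WT 1 and WT 2. Pclaf, a PCNA-binding factor, was at 70.9 and 53.2 FPKM in the KO libraries and 90.6 and 96.96 FPKM in the WT libraries. Supt16 encodes a subunit of the histone chaperone FACT and Tipin a part of the fork protection complex. Supt16 was at 43.96 and 35.9 FPKM in KO 1 and KO 2, against 55.02 and 56.98 FPKM in WT 1 and WT 2. Tipin was at 45.1 and 42.1 FPKM in KO 1 and KO 2, against 56.7 and 58.96 FPKM in WT 1 and WT 2. In limma the 6 log2 changes lay between -0.60 and -0.40, with adjusted p between 0.345 and 0.376.

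Mitosis genes were lower by closer amounts in the KO libraries. Their median log2 change of -0.41 became 0.06 with B-lineage scaling (all genes: -0.09 and 0.32). All 60 mitosis genes lay below both WT libraries in both KO libraries, against 31.7% of all genes. With B-lineage scaling 1 of 60 did, against 3.98% of all genes. The median difference from the WT mean was -0.33 for KO 1 and -0.45 for KO 2, while the 49 replication genes had -0.16 for KO 1 and -0.54 for KO 2. KO 2 was lower than KO 1 for 46 of 60 mitosis genes, against 48 of 49 replication genes and 63.1% of all genes. Kif18a, a kinesin that aligns chromosomes, was at 3.49 and 3.81 FPKM in KO 1 and KO 2, against 6.28 and 6.5 FPKM in WT 1 and WT 2. Nusap1, whose product bundles spindle microtubules, stood at 42.4 and 41.4 FPKM in the KO libraries and 62.5 and 64.4 FPKM in the WT libraries. For both the KO libraries were near each other. No mitosis gene was called. At an unadjusted p under 0.05, 32 of 60 were lower in limma (6.02% of all genes) and 37 in voom (865 of 13278 genes). The difference between the lists was not tested, since genes of a list are not replicates.

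Markers of other cells differed between the libraries. All 15 neutrophil markers were higher in the KO mean and 14 lay above both WT libraries in both KO libraries (19.7% of all genes did), with a median log2 difference of 0.47 for KO 1 and 1.49 for KO 2. S100a9 stood at 15796 and 32346 FPKM in KO 1 and KO 2, against 11647 and 11187 FPKM in WT 1 and WT 2. None of the neutrophil, erythroid or macrophage markers was at 0 in any library. Erythroid markers, from cells that also divide, had a median of -1.19 for KO 1 and -0.59 for KO 2, and summed to 401 and 701 FPKM in KO 1 and KO 2, against 1399 and 853 FPKM in WT 1 and WT 2. Plasma cell markers held a called gene, Jchain, the joining chain of secreted antibodies, at 0.25 and 0.45 FPKM in KO 1 and KO 2, against 105.85 and 91.5 FPKM in WT 1 and WT 2 (log2 change -6.21 ± 0.16, SE, adjusted p = 0.00135, limma). Tnfrsf17, the plasma cell receptor BCMA, was listed at 0 in both KO libraries, against 2.17 and 1.79 FPKM in WT 1 and WT 2. The plasma cell list did not move as a whole. Of its 6 tested genes 4 lay below both WT libraries in both KO libraries (31.7% of all genes) and 1 above (19.7%). Xbp1 was at 47.1 and 55.4 FPKM in KO 1 and KO 2, against 45.6 and 39.3 FPKM in WT 1 and WT 2. Mzb1 was at 50.9 and 28.1 FPKM in KO 1 and KO 2, against 39.2 and 37.6 FPKM in WT 1 and WT 2. B-lineage markers had a median of -0.04 for KO 1, where 8 of 15 were below the WT mean (51.0% of all genes). For KO 2 their median was -0.92, where 13 of 15 were (65.2% of all genes). The DNA replication genes had -0.16 for KO 1 and -0.54 for KO 2, and the lists were not tested against each other. If these marker differences come from cell content was not tested, nor was their part in the lower replication genes.

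**Figure D4:**
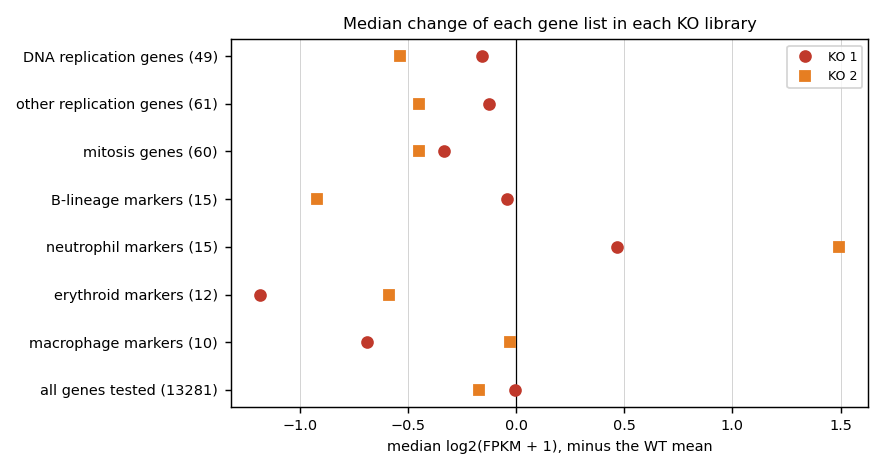
Median log2(FPKM + 1) minus the WT mean in KO 1 and KO 2 for the DNA replication genes and 6 other lists, with all genes tested below; the number of genes is in brackets. In KO 2 the replication genes (-0.54) lie between the mitosis genes (-0.45) and the erythroid markers (-0.59). B-lineage markers lie lower (-0.92) and neutrophil markers at 1.49. With B-lineage scaling the median change of the replication genes was 0.10, against 0.32 for all genes.

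Leaving neutrophil, erythroid and macrophage markers out of the library scaling gave a median of -0.29 for the members, with all 49 negative and 35 below both WT libraries (25.4% of all genes). Rescaled to B-lineage markers the median was 0.10, against 0.32 for all genes, with 0 members below both WT libraries (3.98% of all genes) and 4 of 49 above (36.3% of all genes). The members' median minus that of all genes was -0.21 in that scaling and -0.25 in the values as deposited.

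**Figure D5:**
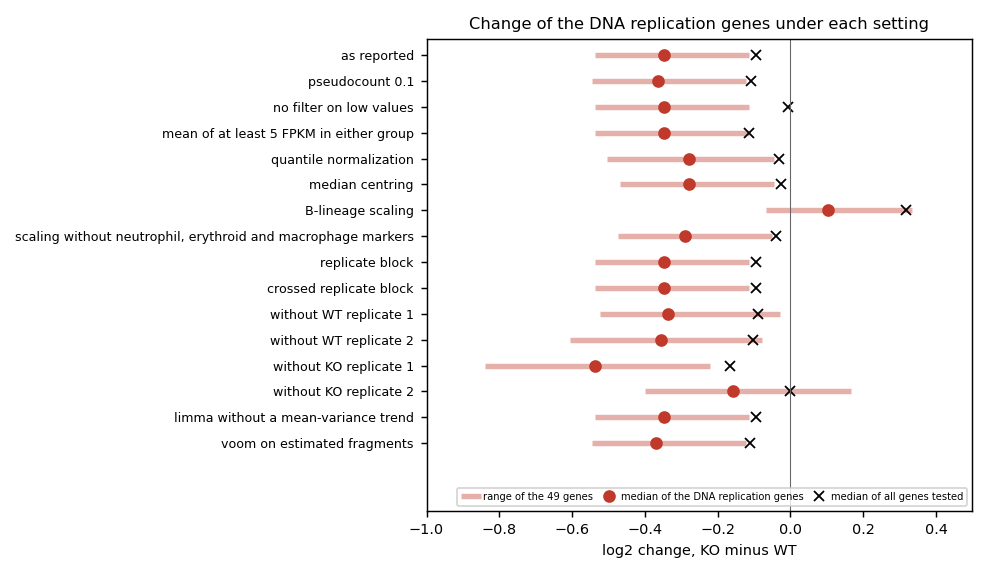
Median log2 change, KO minus WT, of the 49 DNA replication genes (circles, with the range of the genes as bars) and of all genes tested (crosses) under each setting. The circle lies left of the cross in every row shown, and lies right of 0 with B-lineage scaling alone. Median centring, the replicate blocks and the fit without a trend cannot change the gap between circle and cross.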

How the data were processed

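The authors deposited FPKM values per Ensembl gene, rounded to 2 decimals, for 4 libraries, 1 file each, per the file headers. The submitters' processing notes name the mm9 build; for aligner, counting program, annotation and strand: not given in the sources used here. Gene symbols could be found for 55394 of 55573 identifiers, and coordinates are those of GENCODE M21 (GRCm38), since the files give none. With M21 exon lengths, 99.6% to 99.7% of low FPKM values fell within 0.15 fragments of a whole number, which gave the estimated fragments.

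Log2(FPKM + 1) was tested with limma 3.58.1 in R 4.3.3, with a mean-variance trend, without covariates, over the 13281 genes averaging 1 FPKM or more in KO or in WT. The log2(FPKM + 1) scale understates changes of low genes. Libraries of a group were no duplicates: chi-square over its degrees of freedom was 54.7 for the KO pair and 7.74 for the WT pair. With 2 against 2 libraries no exact permutation test of a single gene can pass, so none was run.

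The members and lists were chosen with earlier results of these data known. Values in every library are given for up to 4 members of each role with the smallest p and for any member with its KO libraries more than 0.1 on either side of the WT mean (log2), 30 in all. Mcm2, Mcm5, Cdt1, Gmnn, Cdc45, Pola2, Prim2, Pold2, Rfc3, Tyms, S100a9, Cd79a, Vpreb2, Jchain, Tnfrsf17, Xbp1, Mzb1 and overlapping or copied genes were added after their values were seen. Alternatives were other pseudocounts, filters, scalings, replicate blocks, no trend, voom on estimated fragments and each library left out.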

Additional observations from a re-analysis of the deposited data

How the results depend on the processing

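The number of genes called in limma was 27 and depended on the setting. It was 15 with a pseudocount of 0.1, 16 when neutrophil, erythroid and macrophage markers were left out of the scaling, 9 with voom on estimated fragments, 0 with no filter on low values and 288 with B-lineage scaling. With each library left out in turn it ranged from 0 (without KO 2) to 948 (without KO 1), with 14 without WT 1. With the replicate number as a block 68 genes and 0 members were called. Same-numbered libraries deviated against each other (r = -0.15 across genes), and with the crossed pairing, added after seeing the data, 213 genes and 0 members were called. The count of members called was 0 in every setting except without KO 1 (9), so leaving out libraries gave 0 to 9. Members with both KO libraries below both WT libraries numbered 36 (31.7% of all genes), 0 with B-lineage scaling (3.98%) and 36 to 49 with libraries left out (38.6% to 57.7%), where 49 is without KO 1, with 1 KO library left. The members' median of -0.35 was 0.10 with B-lineage scaling, where the median of all genes was 0.32 and 12.1% of all genes were negative. With libraries left out the members' median ranged from -0.54 (without KO 1) to -0.16 (without KO 2). B-lineage scaling turned 40 members positive, with log2 changes of 0.33 for Cdc45, Tyms and E2f1, 0.32 for Chaf1a, 0.31 for Tk1, 0.27 for Chaf1b, 0.26 for Rfc2, 0.25 for Rpa3, 0.23 for Pold1 and Dnmt1, 0.21 for Prim2, 0.20 for Fen1, 0.19 for Pola2, 0.18 for Mcm5 and Gins4, 0.17 for Gins1, Pole, Pole2 and Rfc1, 0.15 for Cdt1, 0.14 for Rfc5, 0.13 for Gmnn, 0.12 for Pold2 and Rpa1, 0.10 for Gins3 and Uhrf1, 0.099 for Mcm3, 0.098 for Mcm2, 0.097 for Mcm10, 0.081 for Mcm4, 0.074 for Orc1, 0.067 for Rrm2, 0.065 for Ccne2, 0.052 for Prim1, 0.050 for Mcm6, 0.049 for Mcm7, 0.021 for Orc2, 0.019 for Rpa2, 0.0057 for Pola1, 0.0010 for Rrm1, where the shift of all genes by 0.41 comes from the scaling itself. Without KO 2 there were 6 positive members, and leaving out libraries gave them log2 changes of -0.52 to 0.0072 for Pola2, -0.64 to 0.17 for Pold1, -0.76 to 0.076 for Pold2, -0.24 to 0.0067 for Tyms, -0.30 to 0.033 for Chaf1a and -0.36 to 0.096 for E2f1. The cause of the other differences was not tested. Each member had at least 358 estimated fragments in every library.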

Other observations

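Of the 61 other replication genes 6 had a positive log2 change, where 61.7% of all genes had a negative one. The largest was that of Samhd1, chosen after its values were seen. SAMHD1 breaks down deoxyribonucleotides and is abundant in myeloid cells. Samhd1 stood at 26.2 and 39.5 FPKM in KO 1 and KO 2, against 25.1 and 24.6 FPKM in WT 1 and WT 2, with KO 2 far above the other libraries (log2 change 0.36, adjusted p = 0.507, limma). Neutrophil markers took 11.3% and 21.4% of all FPKM in KO 1 and KO 2, against 8.51% and 8.25% in WT 1 and WT 2, and their part in the Samhd1 level was not tested.

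The promoter letters were also counted in the other lists. An E2F-type motif stood in 19 of 50 other replication genes with a window (38.0%) and in 4 of 50 mitosis genes (8.0%), against 4.81% of tested genes. The letters CCAAT, on either strand, stood in 25 of 40 members (62.5%), 25 of 50 other replication genes (50%) and 37 of 50 mitosis genes (74.0%), against 43.5% of tested genes. These counts describe the windows alone and were compared with no test.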
